A study of Mus musculus with 17 samples.

Results

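The 10 genes described here encode the insulin-like growth factors (IGFs) Igf1 and Igf2, their receptors Igf1r and Igf2r, and the binding proteins Igfbp2 to Igfbp7. They were taken by name from the 55335 genes counted in every library, and all 10 were present and passed the filter on low counts in every main fit. With an alternative filter of 10 counts in every library, Igfbp2 did not pass. The RNA came from 2 populations sorted from the digested bone fraction of mice. Both were negative for the blood and endothelial markers CD45, TER119 and CD31. Osteoprogenitor cells (OPCs) lacked Sca-1 and were CD51+PDGFRα+/-, whereas skeletal stromal cells (SSCs) carried Sca-1 and were CD51+PDGFRα+. The mice were wild type (WT) or carried 1 (+/1013) or 2 (1013/1013) copies of the Cxcr4 1013 allele, and were described as littermate females of 8 to 12 weeks. This knock-in allele removes the end of the receptor's C-terminal tail, as in WHIM syndrome, leaves Cxcr4 resistant to desensitization, and is carried by every cell of the animal and not by the sorted cells alone. Each library was made from 3000 cells pooled from 3 mice, with 3 libraries per group except 2 for 1013/1013 SSCs, 17 in all. Counts summed over a gene do not show the truncation, so the genotype labels could not be checked from these counts.

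IGF1 and IGF2 are secreted growth factors that signal through the tyrosine kinase receptor encoded by Igf1r, and in bone they act on the survival, proliferation and matrix synthesis of osteoblast lineage cells. Igf2r encodes the cation-independent mannose 6-phosphate receptor, which binds IGF2 and carries it to lysosomes. The binding proteins hold IGFs in the extracellular space, lengthen their life and limit or direct their access to the receptor, and proteases release the ligand from them. Igfbp7 binds IGFs with low affinity and is counted with the family by name and by its amino-terminal domain.

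Between 64099849 and 92683497 counts fell on genes in an OPC library and between 44217695 and 50509592 in an SSC library, so depth and cell type cannot be told apart. Levels are given as CPM, counts scaled to a common library size with the TMM factors of edgeR over all 17 libraries. A count of 3, taken as the floor of detection, equalled 0.0324 to 0.0468 CPM in OPCs and 0.0594 to 0.0679 CPM in SSCs, covering counting error only. The sorting marker Sca-1 and the osteoblast genes differed in the direction of the labels. Ly6a, which encodes Sca-1, lay at 0.569 to 12.4 CPM in OPCs and at 386 to 1450 CPM in SSCs, and 7 osteoblast lineage genes summed to 101600 to 321500 CPM in OPCs and 3933 to 13580 CPM in SSCs. Sums over other lists separated the cell types too. For 4 chondrocyte markers the sum was 11490 to 81880 CPM in OPCs and 48.5 to 3852 CPM in SSCs, although Sox9 alone overlapped. For 4 markers of marrow adipocyte lineage and reticular cells it was 79.8 to 393 CPM in OPCs and 493 to 1876 CPM in SSCs. In the latter list Cxcl12 and Lepr separated the cell types. The adipocyte gene Adipoq overlapped (0 to 8.98 CPM in OPCs and 0.153 to 21.3 CPM in SSCs), and Plin1 was at most 0.498 CPM. The part of these other cells in the IGF differences between the cell types was not tested. Despite the CD45- gate, 6 leukocyte markers summed to 8596 CPM in OPC WT replicate 3, 6281 CPM in OPC 1013/1013 replicate 2 and 2423 CPM in SSC WT replicate 3, and to at most 810 CPM in the other 14 libraries. Results were therefore also computed without these 3 libraries. SSC WT libraries had 21449 to 22599 genes with a count and mutant SSC libraries 15748 to 19227, without overlap. As these are bulk libraries, fewer cells of a type and less RNA per cell cannot be told apart.

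In both cell types Igfbp4, Igfbp5, Igfbp6 and Igfbp7 were more abundant than the ligands, the receptors and Igfbp2. Igfbp3 lay among the ligands and receptors in OPCs, and its median was above theirs in SSCs. On the scale of CPM per kb of exon, which allows genes to be compared with each other, Igfbp7 led in OPCs with a median of 185 (range 106 to 230, n = 9), followed by Igfbp6 at 49.5 (31.8 to 188), Igfbp4 at 33.9 (18.1 to 73.5) and Igfbp5 at 22.9 (11.4 to 68.0). The ranges of these 4 neighbours overlapped, and all 4 lay above the fifth, Igf2r, at 5.17 (2.32 to 7.68). Igf1 at 2.53, Igfbp3 at 2.35, Igf1r at 0.705, Igf2 at 0.243 and Igfbp2 at 0.123 CPM per kb came next, each overlapping the one after it. In SSCs, Igfbp6 led at 2222 (880 to 2430, n = 8) with Igfbp7 at 1318 (741 to 2351), and these ranges overlapped. Both lay above Igfbp5 at 225 (143 to 382), which overlapped Igfbp4 at 143 (68.5 to 396). Igfbp3 at 52.2 and Igf1 at 23.6 CPM per kb followed and overlapped. The ranges of Igf1, Igf2r (4.003, 2.86 to 7.84) and Igf1r (0.811, 0.413 to 1.46) did not overlap, and Igfbp2 (0.786) and Igf2 (0.415) were lowest. Igf2r exceeded Igf1r per kb in all 17 libraries, by 3.91 to 14.6 times in mutant OPCs, 4.98 to 8.80 times in WT OPCs and 3.38 to 11.8 times in SSCs.

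**Figure D1:**
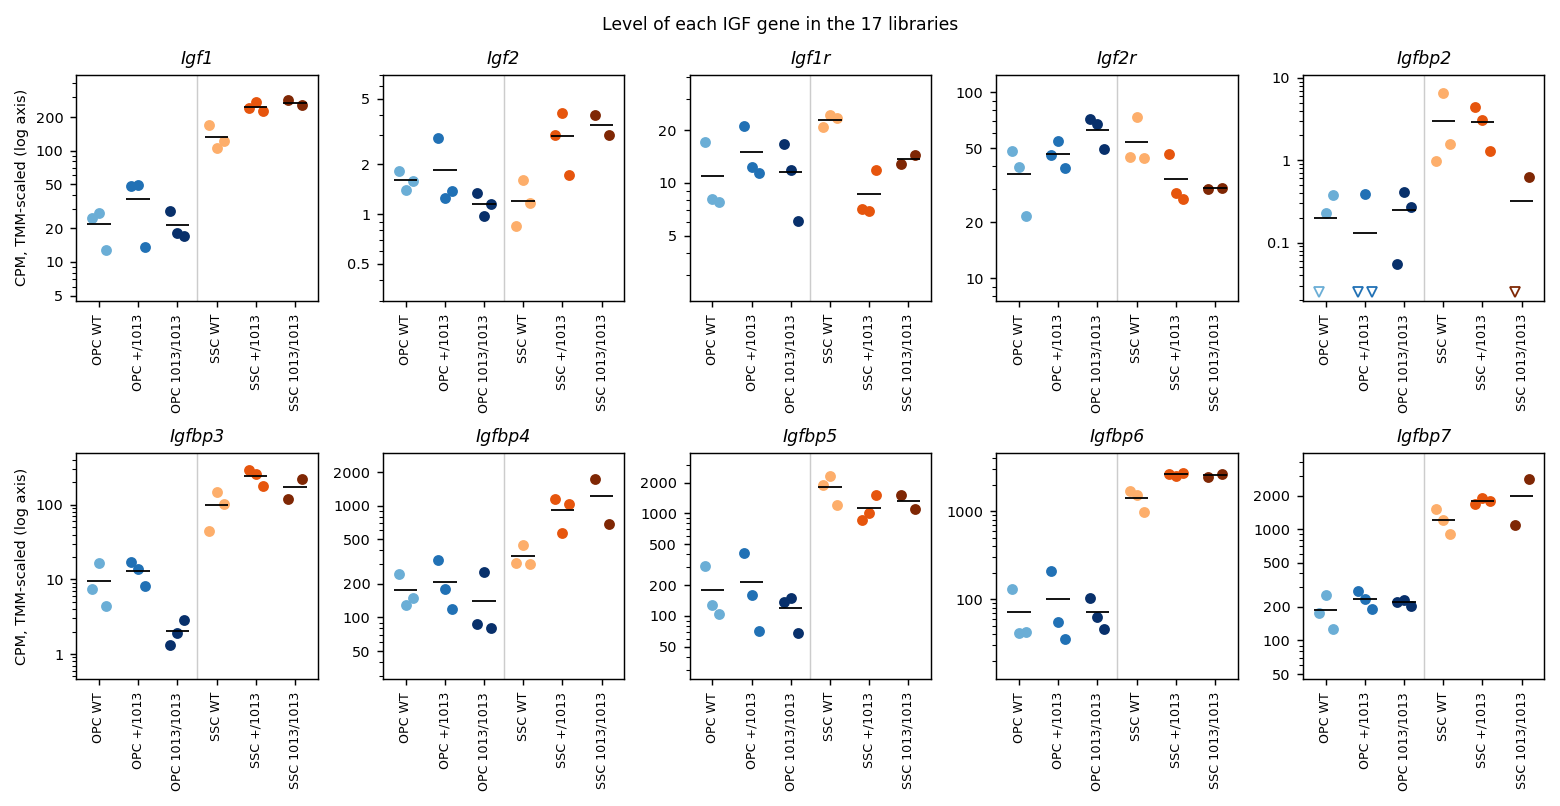
CPM (TMM-scaled, log axis) of each IGF gene, 1 point per library and a bar at the mean of each group; open triangles at the foot of the Igfbp2 panel are libraries with 0 counts. Igf1, Igfbp3, Igfbp5, Igfbp6 and Igfbp7 lay higher in every SSC library than in any OPC library, whereas the receptors overlapped.

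The genes lie on 7 chromosomes of mm10 (GENCODE M21 annotation). Igf1 is at chr10:87858265-87937042, Igf2 at chr7:142650766-142666816, Igf1r at chr7:67952827-68233668 and Igf2r at chr17:12682406-12769664. Igfbp2 (chr1:72824503-72852474) and Igfbp5 (chr1:72857932-72874884) face each other 5457 bp apart on opposite strands. Igfbp3 (chr11:7206086-7213923) lies 3539 bp from Igfbp1, and Igfbp4 is at chr11:99041244-99054392, Igfbp6 at chr15:102144362-102149511 and Igfbp7 at chr5:77349240-77408041. The Igf2 locus shares its strand with Gm49394, so that reads could have been ambiguous and its values are uncertain. The strand setting of the counting is not given in the sources used here, and Igf1, Igf2, Igf2r and Igfbp7 overlap Igf1os, Igf2os, Airn, and Polr2b with Gm34648, on the other strand.

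SSCs were first compared with OPCs of the same genotype, which asks how the progenitor stages differ in IGF genes. In WT cells 5 of the 10 IGF genes were called higher in SSCs and 0 lower, where called means a change of at least 1.5-fold whose p, from the quasi-likelihood test of edgeR, stayed under 0.05 after Benjamini-Hochberg adjustment over every gene tested. Of all 20238 genes, 11.4% were called in either direction, 5.55% higher and 5.86% lower. In +/1013 cells 6 were called higher and 0 lower against 12.5% of all genes in either direction (6.44% higher, 6.02% lower), and in 1013/1013 cells 6 and 0 against 13.1% (6.94% higher, 6.12% lower). Across the 10 genes the median log2 difference was 2.65, 2.58 and 3.13 in WT, +/1013 and 1013/1013 cells, beside 0.17, 0 and −0.20 over all genes. An unadjusted edgeR p under 0.05 was reached by 6, 6 and 8 of them, against 26.7%, 27.6% and 28.3% of all genes. SSC and OPC libraries did not overlap for 8, 7 and 8 of the 10 genes, against 37.9%, 35.1% and 40.2% of all genes.

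Igfbp6, whose product prefers IGF2 over IGF1, showed 132, 41.2 and 42.8 CPM in the WT OPC libraries and 1681, 1527 and 978 CPM in the WT SSC libraries. Its log2 fold change was 4.28 ± 0.67 (SE, edgeR adjusted p = 0.00128), 4.71 ± 0.69 in +/1013 cells (edgeR adjusted p = 0.000529) and 5.16 ± 0.72 in 1013/1013 cells (edgeR adjusted p = 0.00049). Every SSC library lay above every OPC library. The replicates 1 of WT and +/1013 OPCs had the highest Igfbp6 of that cell type, at 132 and 209 CPM. Without them the log2 fold change was 5.05 in WT and 5.84 in +/1013 cells. Igfbp5, an abundant binding protein of bone matrix, was also highest in these OPC libraries, at 306 and 408 CPM in the replicates 1 and 68.7 to 160 CPM in the other 7. It ranged from 861 to 2296 CPM in SSCs. Its log2 fold changes were 3.32 ± 0.61 in WT (edgeR adjusted p = 0.00344), 2.41 ± 0.59 in +/1013 (edgeR adjusted p = 0.0159) and 3.46 ± 0.64 in 1013/1013 cells (edgeR adjusted p = 0.00339). Without the replicate 1 OPC library, Igfbp5 stood at 3.95 in WT and 3.28 in +/1013 cells. Igfbp5 lost its +/1013 call without OPC +/1013 replicate 2 (2.23, edgeR adjusted p = 0.0674) or 3 (1.99, edgeR adjusted p = 0.0502).

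Igfbp7 and Igfbp3 followed the same order. Igfbp7 read 176, 257 and 128 CPM in WT OPCs and 1519, 1211 and 896 CPM in WT SSCs. The difference on the log2 scale was 2.70 ± 0.35 in WT (edgeR adjusted p = 0.000334), 2.92 ± 0.35 in +/1013 (edgeR adjusted p = 0.000129) and 3.16 ± 0.38 in 1013/1013 cells (edgeR adjusted p = 0.000123). Its 2 libraries of 1013/1013 SSCs stood apart, at 1094 and 2843 CPM, and without replicate 2 the last difference was 2.36, still called, with the lone SSC library left taken to vary like the other groups. Igfbp3, which encodes the main carrier of circulating IGFs, read 7.35, 16.6 and 4.44 CPM in WT OPCs and 44.5, 149 and 102 CPM in WT SSCs. The groups did not overlap, and the log2 fold change was 3.38 ± 0.56 (edgeR adjusted p = 0.00177), or 4.08 without OPC WT replicate 2, the library with 16.6 CPM. It was 4.23 ± 0.58 in +/1013 cells (edgeR adjusted p = 0.000338) and 6.41 ± 0.66 in 1013/1013 cells (edgeR adjusted p = 3.33e-05).

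Among the ligands, Igf1 was called in all 3 genotypes. It read 25.04, 27.6 and 12.7 CPM in WT OPCs and 170, 106 and 121 CPM in WT SSCs, a log2 fold change of 2.61 ± 0.43 (edgeR adjusted p = 0.00182). The values were 2.75 ± 0.43 in +/1013 (edgeR adjusted p = 0.000989) and 3.65 ± 0.47 in 1013/1013 cells (edgeR adjusted p = 0.00025). Igf1 is also made by macrophages, and 5 macrophage markers summed to 0.411 to 52.4 CPM in SSCs and 1.12 to 122 CPM in OPCs, with no separation of the cell types. Igf2, the ligand best known from fetal growth, was at 0.851 to 4.12 CPM in every library. Its SSC and OPC values overlapped in WT and +/1013 cells. In 1013/1013 cells it read 1.35, 0.980 and 1.15 CPM in OPCs and 3.96 and 3.02 CPM in SSCs, a log2 fold change of 1.59 ± 0.61 that was not called (edgeR adjusted p = 0.108). It was called there by DESeq2's Wald test (adjusted p = 0.00476) and in edgeR with a filter of 10 counts in every library (adjusted p = 0.0149).

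Igfbp4, whose product mainly restrains IGF action until it is cleaved, was called in the mutants. In WT cells it read 247, 128 and 150 CPM in OPCs and 309, 448 and 303 CPM in SSCs, without overlap, at a log2 fold change of 1.02 ± 0.52 (edgeR adjusted p = 0.225). The difference was 2.14 ± 0.53 in +/1013 (edgeR adjusted p = 0.0179) and 3.11 ± 0.58 in 1013/1013 cells (edgeR adjusted p = 0.00362). The first call was lost without OPC +/1013 replicate 2 or 3 or SSC +/1013 replicate 1 (1.86 to 2.04, edgeR adjusted p = 0.0585 to 0.0788). The second was lost without SSC 1013/1013 replicate 1 (2.28, edgeR adjusted p = 0.055) and when only the 2 groups were fitted (3.11, edgeR adjusted p = 0.0876). It was 3.89 without OPC 1013/1013 replicate 2 and 3.87 without the leukocyte-rich libraries. Igfbp2 was near the limit of detection in OPCs, at 0 to 0.411 CPM with 0 counts in 3 of 9 libraries, and at 0 to 6.47 CPM in SSCs. It did not overlap between the cell types in WT and +/1013 cells, where its log2 fold changes of 3.90 ± 2.07 and 4.49 ± 2.14 were not called (edgeR adjusted p = 0.245 and 0.191). Single libraries decided these values, as the first was 2.67 without SSC WT replicate 2, and the second was 10.5 without OPC +/1013 replicate 2, when the OPC libraries left had 0 counts and the fold is no bound.

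The receptors did not share this pattern. Igf1r read 17.02, 8.07 and 7.83 CPM in WT OPCs and 20.8, 24.4 and 23.5 CPM in WT SSCs, without overlap, at a log2 fold change of 1.06 ± 0.41 (edgeR adjusted p = 0.119). It was called without OPC WT replicate 1, the library with 17.02 CPM (1.53, edgeR adjusted p = 0.0371). In +/1013 cells the sign was opposite, −0.79 ± 0.41 (edgeR adjusted p = 0.231), and the libraries overlapped. Igf2r overlapped between the cell types in WT and +/1013 cells. In 1013/1013 cells it read 71.5, 67.4 and 49.2 CPM in OPCs and 30.3 and 30.5 CPM in SSCs, a log2 fold change of −1.04 ± 0.36 (edgeR adjusted p = 0.0735). Igf2r was called there by DESeq2's Wald test (adjusted p = 0.0169) and in edgeR with a replicate block (adjusted p = 0.0198) or a filter of 10 counts in every library (adjusted p = 0.0382). Without the leukocyte-rich libraries the IGF genes called remained 5 in WT and 6 in 1013/1013 cells.

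**Figure D2:**
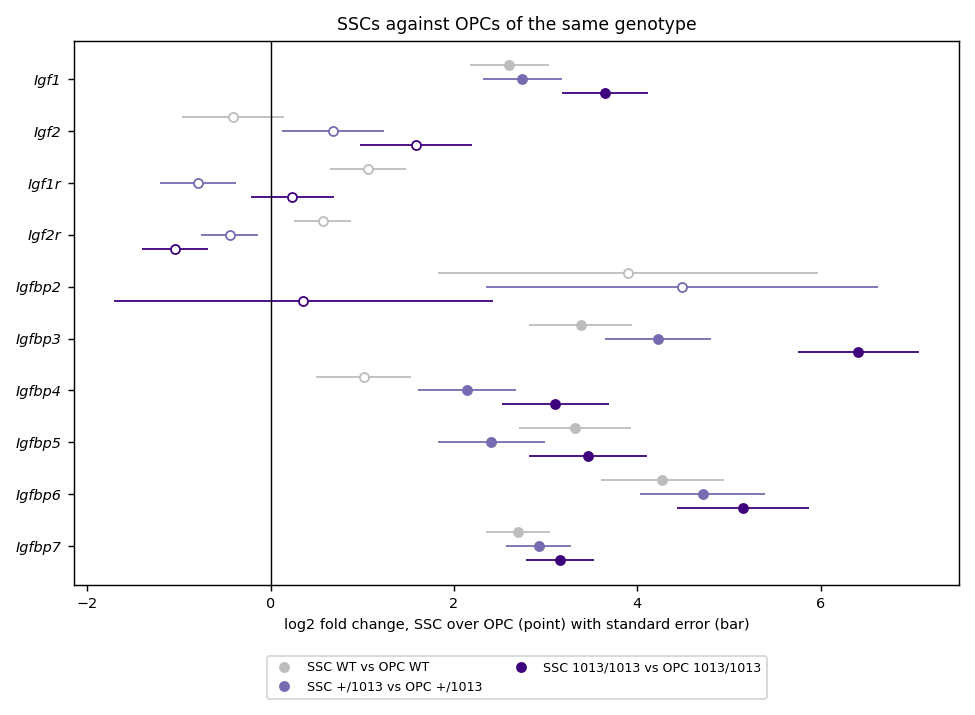
log2 fold change of SSCs over OPCs for each IGF gene with its standard error, in 3 genotypes; filled points were called and open points were not. The binding proteins Igfbp3, Igfbp5, Igfbp6 and Igfbp7 and the ligand Igf1 are filled in all 3 genotypes, and both receptors are open in all 3.

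The 5 genes called in every genotype have promoters of different composition, shown here because these are the members that differed together between the cell types. The letters are the 250 bases before the RefSeq start site in GRCm38.p6, 5′ to 3′ on the gene's strand, and capitals mark matches on either strand. The motifs searched were TATAAA, known as the site of the basal factor TBP, then CCAAT, which the factor NF-Y is known to bind, and lastly GGGCGG, known from sites of Sp1. The windows are chr10:87860861-87861110 (+) for Igf1, chr11:7213924-7214173 (−) for Igfbp3, chr1:72874866-72875115 (−) for Igfbp5, chr15:102143936-102144185 (+) for Igfbp6 and chr5:77408046-77408295 (−) for Igfbp7.
Igf1: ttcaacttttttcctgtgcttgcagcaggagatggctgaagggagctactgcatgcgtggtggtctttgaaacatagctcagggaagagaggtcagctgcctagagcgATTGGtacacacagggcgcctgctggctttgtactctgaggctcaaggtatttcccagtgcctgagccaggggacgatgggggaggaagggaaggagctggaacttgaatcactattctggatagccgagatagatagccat
Igfbp3: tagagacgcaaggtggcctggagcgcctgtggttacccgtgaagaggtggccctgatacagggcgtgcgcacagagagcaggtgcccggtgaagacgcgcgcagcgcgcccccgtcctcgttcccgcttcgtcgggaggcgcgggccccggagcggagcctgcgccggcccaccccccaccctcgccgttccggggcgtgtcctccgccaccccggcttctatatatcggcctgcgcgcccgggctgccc
Igfbp5: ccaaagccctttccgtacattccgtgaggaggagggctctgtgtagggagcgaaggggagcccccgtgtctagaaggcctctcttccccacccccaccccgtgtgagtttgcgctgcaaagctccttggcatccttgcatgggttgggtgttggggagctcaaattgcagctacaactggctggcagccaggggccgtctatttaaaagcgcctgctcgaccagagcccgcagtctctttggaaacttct
Igfbp6: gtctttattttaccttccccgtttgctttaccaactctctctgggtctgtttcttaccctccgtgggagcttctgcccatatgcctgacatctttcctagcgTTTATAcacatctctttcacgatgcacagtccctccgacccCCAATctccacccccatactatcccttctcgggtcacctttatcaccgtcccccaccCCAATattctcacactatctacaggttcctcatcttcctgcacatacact
Igfbp7: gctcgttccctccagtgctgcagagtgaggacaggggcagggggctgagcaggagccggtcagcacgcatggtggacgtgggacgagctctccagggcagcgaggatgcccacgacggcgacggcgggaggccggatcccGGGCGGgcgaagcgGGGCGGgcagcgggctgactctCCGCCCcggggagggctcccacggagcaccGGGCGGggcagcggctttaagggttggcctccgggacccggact
The Igfbp3 and Igfbp7 windows held 32 and 26 CpG dinucleotides and 73.2% and 74% G or C, whereas Igf1, Igfbp5 and Igfbp6 held 5, 10 and 7 CpG and 52.8%, 58.8% and 49.6% G or C. The median over the 32851 promoters of the same length was 6 CpG and 52.4% G or C. GGGCGG was found 4 times in the Igfbp7 window and in none of the other 4, and 32.7% of all promoters held it. CCAAT was found 2 times in the Igfbp6 window and 1 time in that of Igf1, against 33.8% of promoters with a match. TATAAA was present in the Igfbp6 window alone among the 5, and in 12.4% of all promoters. The Igfbp6 match lies on the opposite strand, 148 bases before the RefSeq start site. Only the exact letters were searched, and similar stretches were not counted. Igf1 starts earlier in GENCODE than in this RefSeq window. Igfbp6 starts later in GENCODE, at chr15:102144362, so the bases between its window and that start were not searched. A match of letters is a description only.

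The mix of binding protein transcripts also differed between the cell types. Per kb, the 6 binding proteins summed to 292 ± 88.8 CPM per kb (SD, n = 3) in WT, 371 ± 173 (n = 3) in +/1013 and 299 ± 50.01 (n = 3) in 1013/1013 OPCs. The sum was 2667 ± 658 (SD, n = 3) in WT, 4307 ± 121 (n = 3) in +/1013 and 4464 ± 967 (n = 2) in 1013/1013 SSCs. WT SSC libraries (1923 to 3169) did not overlap +/1013 (4218 to 4444) or 1013/1013 SSC libraries (3781 and 5148). Igfbp7 made up 54.0% to 61.8% of the sum in the 3 OPC groups on average and 34.3% to 37.5% in the SSC groups. Igfbp6 made up 20.9% to 21.2% and 46.9% to 54.7%. Igfbp5 held 10% to 13.1% of the sum in WT SSC libraries, and 3.37% to 5.69% in +/1013 and 3.61% to 6.62% in 1013/1013 SSC libraries. Igf1 per kb amounted to 0.516% to 1.01% of the summed binding proteins in the 6 groups on average, with 0.369% to 1.57% over single libraries. These shares are descriptions and were not tested.

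**Figure D3:**
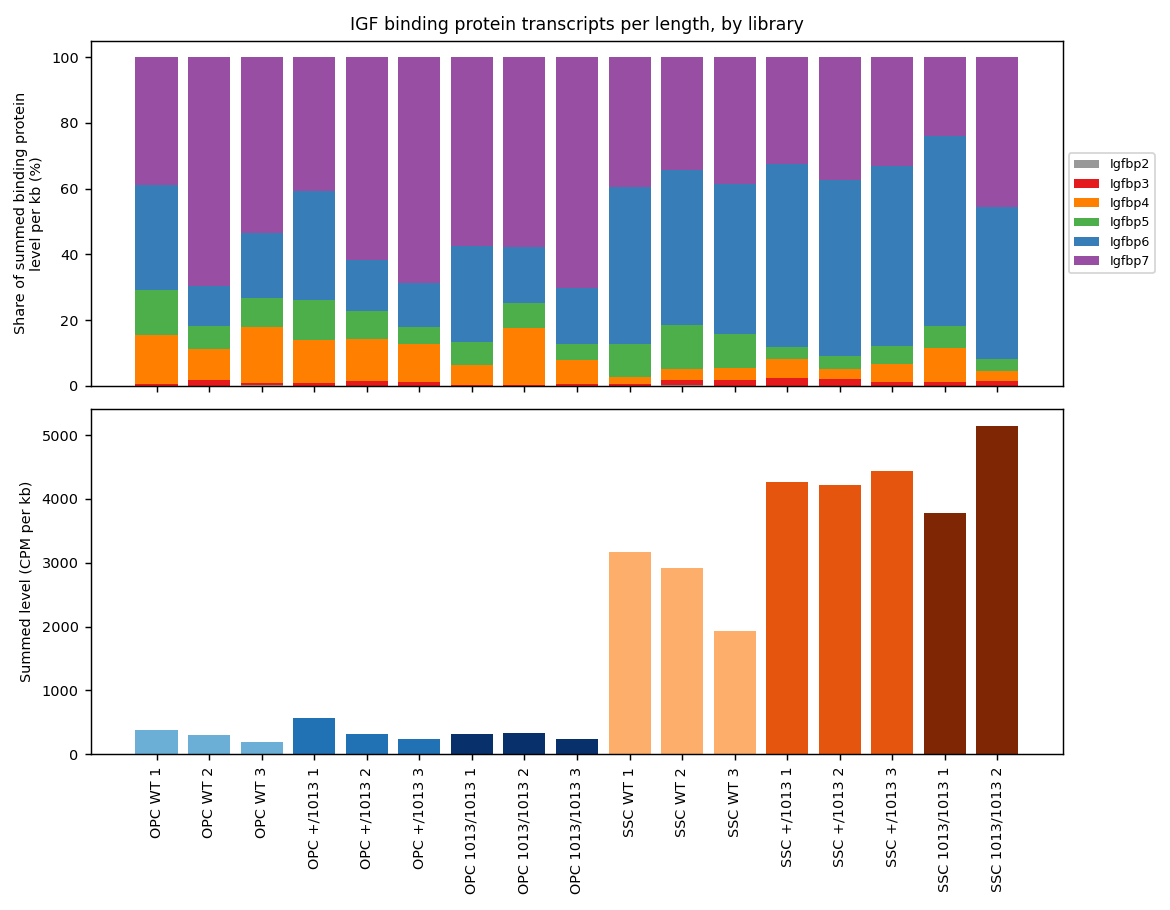
Top, share (%) of each of the 6 binding proteins in their summed CPM per kb, by library; bottom, that sum in CPM per kb. Igfbp7 takes the largest part of all 9 OPC bars and Igfbp6 that of all 8 SSC bars, and the 5 mutant SSC sums, from 3781 to 5148, all exceed the WT SSC sums of 1923 to 3169.

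The genotypes were then compared within SSCs, to ask whether the 1013 allele goes with another IGF profile at the stromal stage. Of the 10 IGF genes, 0 were called in +/1013 against WT, where 0.0736% of 17659 genes were called (0.068% higher and 0.00566% lower), 0 in 1013/1013 against WT (0% of genes) and 0 in 1013/1013 against +/1013 (0% of genes). At an unadjusted edgeR p under 0.05 stood 6, 4 and 0 of the 10, against 17.3%, 18.3% and 5.53% of all genes. DESeq2's Wald test called 3, 3 and 0 of them. The shares of all genes given here are edgeR's alone, so these DESeq2 counts cannot be set against them. The libraries did not overlap for 7, 7 and 2 of the 10, against 31.2%, 40.7% and 15.9% of all genes. Both mutant comparisons share the same 3 WT libraries, and p-values reflect the spread between pools of 3 mice.

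Igf1 read 170, 106 and 121 CPM in WT, 241, 274 and 228 CPM in +/1013 and 283 and 256 CPM in 1013/1013 SSCs. Every mutant library was above every WT library. The log2 fold change was 0.88 ± 0.21 in +/1013 (edgeR adjusted p = 0.143, DESeq2 adjusted p = 0.0236) and 1.04 ± 0.23 in 1013/1013 SSCs (edgeR adjusted p = 0.118, DESeq2 adjusted p = 0.0109). The macrophage markers summed to 7.23 to 52.4 CPM in WT, 0.411 to 2.30 CPM in +/1013 and 3.996 to 8.96 CPM in 1013/1013 SSCs, the last overlapping WT. Igf2 read 0.851, 1.60 and 1.17 CPM in WT and 1.73 to 4.12 CPM in the 5 mutant libraries, again without overlap. Its log2 fold changes of 1.27 ± 0.63 and 1.54 ± 0.69 were not called by either tool (edgeR adjusted p = 0.35 and 0.285).

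The receptor Igf1r had the opposite order, 20.8, 24.4 and 23.5 CPM in WT, 7.12, 6.94 and 11.8 CPM in +/1013 and 12.8 and 14.4 CPM in 1013/1013 SSCs. No mutant library reached a WT library, and the 2 mutant groups did not overlap either. The log2 fold change was −1.43 ± 0.29 in +/1013 (edgeR adjusted p = 0.117, DESeq2 adjusted p = 5.43e-05) and −0.74 ± 0.33 in 1013/1013 SSCs (edgeR adjusted p = 0.283, DESeq2 adjusted p = 0.0971). Between 1013/1013 and +/1013 it was 0.69 ± 0.32 (edgeR adjusted p = 0.788). Igf2r read 45.0, 73.0 and 44.0 CPM in WT, 46.7, 28.7 and 26.7 CPM in +/1013 and 30.3 and 30.5 CPM in 1013/1013 SSCs. The 1013/1013 libraries lay below WT and +/1013 overlapped WT, with log2 fold changes of −0.82 ± 0.33 (edgeR adjusted p = 0.259) and −0.69 ± 0.29 (edgeR adjusted p = 0.285). The median over all genes was −0.11 in +/1013 and −0.23 in 1013/1013 SSCs, against which these changes are to be read.

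Of the binding proteins, Igfbp4 read 309, 448 and 303 CPM in WT, 1137, 575 and 1034 CPM in +/1013 and 1747 and 685 CPM in 1013/1013 SSCs. All 5 mutant libraries were above WT. Igfbp4 stood at 1.35 ± 0.42 in +/1013 (edgeR adjusted p = 0.19, DESeq2 adjusted p = 0.0686) and 1.81 ± 0.46 in 1013/1013 SSCs (edgeR adjusted p = 0.136, DESeq2 adjusted p = 0.0156). The latter rested on replicate 1, without which it was 0.94 (edgeR adjusted p = 0.49). Without replicate 2 it was 2.28 and called (edgeR adjusted p = 0.0122), with the lone library taken to vary like the other groups. Igfbp6 read 1681, 1527 and 978 CPM in WT and 2437 to 2702 CPM in the 5 mutant libraries, without overlap. Igfbp6 stood at 0.89 ± 0.24 in +/1013 (edgeR adjusted p = 0.158, DESeq2 adjusted p = 0.0209) and 0.88 ± 0.26 in 1013/1013 SSCs (edgeR adjusted p = 0.167, DESeq2 adjusted p = 0.0382). These Igfbp6 changes were 0.70 and 0.69 without the leukocyte-rich SSC WT replicate 3, the library with 978 CPM (edgeR adjusted p = 0.355 and 0.324). Igfbp3 was higher in +/1013 libraries (293, 262 and 178 CPM) than in WT (44.5, 149 and 102 CPM), at 1.29 ± 0.45 (edgeR adjusted p = 0.22), and the 1013/1013 libraries, at 121 and 224 CPM, overlapped WT.

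Igfbp7 did not overlap between +/1013 (1667 to 1912 CPM) and WT SSCs (896 to 1519 CPM), at 0.55 ± 0.35 (edgeR adjusted p = 0.486), and overlapped in 1013/1013 SSCs. The +/1013 change was 0.38 without the leukocyte-rich SSC WT replicate 3, the library with 896 CPM. Igfbp5 ran the other way, with 1904, 2296 and 1200 CPM in WT and 861 to 1518 CPM in mutant libraries, which overlapped. Igfbp2 read 0.975, 6.47 and 1.60 CPM in WT SSCs, 4.38, 3.05 and 1.31 CPM in +/1013 and 0 and 0.633 CPM in 1013/1013 SSCs. The 1013/1013 libraries lay below all the others, at −3.25 ± 1.81 against WT (edgeR adjusted p = 0.357) and −3.19 ± 1.80 against +/1013 (edgeR adjusted p = 0.788). The former was −2.05 without SSC WT replicate 2, the library with 6.47 CPM. Igfbp2 was called in both without replicate 2, when the only library left had 0 counts, and no fold is given for it. Markers of other cells also differed between WT and mutant SSCs. The chondrocyte markers summed to 605 to 3852 CPM in WT and 48.5 to 235 CPM in mutant SSCs, without overlap. Col2a1 made the largest part of that WT sum, at 443 to 3314 CPM. Col2a1, Acan and Matn3 did not overlap between WT and mutant SSCs. Sox9 did, at 65.25 to 168 CPM in WT and 41.1 to 126 CPM in mutant SSCs. The osteoblast lineage markers summed to 9682 to 13580 CPM and 3933 to 8080 CPM, also without overlap. Col1a1 made the largest part of the WT sum, at 7523 to 10540 CPM. It was at 1005 to 2954 CPM in +/1013 and 1639 to 2558 CPM in 1013/1013 SSCs. Runx2 was lower too, whereas Sp7, Alpl, Ibsp, Spp1 and Bglap overlapped between WT and mutant libraries. Mean Spp1 was 1946 CPM in WT, 3685 CPM in +/1013 and 2772 CPM in 1013/1013 SSCs. The sorting markers were split. Ly6a was at 386 to 599 CPM in WT and 838 to 1450 CPM in mutant SSCs. Itgav, which encodes CD51, was lower in mutant SSCs, at 17.8 to 35.8 CPM against 49.5 to 59.6 CPM in WT. Pdgfra overlapped (339 to 414 CPM in WT and 341 to 522 CPM in mutant SSCs). Of the marrow adipocyte lineage and reticular markers, Cxcl12 was at 350 to 692 CPM in WT and 797 to 1640 CPM in mutant SSCs, whereas Lepr (143 to 255 and 144 to 239 CPM) and Adipoq (0.3001 to 8.296 and 0.153 to 21.3 CPM) overlapped and Plin1 was at most 0.498 CPM. The part of these differences, and of the lower number of genes detected in mutant SSCs, in the IGF values was not tested. On plain library totals, without TMM scaling, the mean of each mutant group lay on the same side of WT for all genes named here from Igf1 to Igfbp7.

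**Figure D4:**
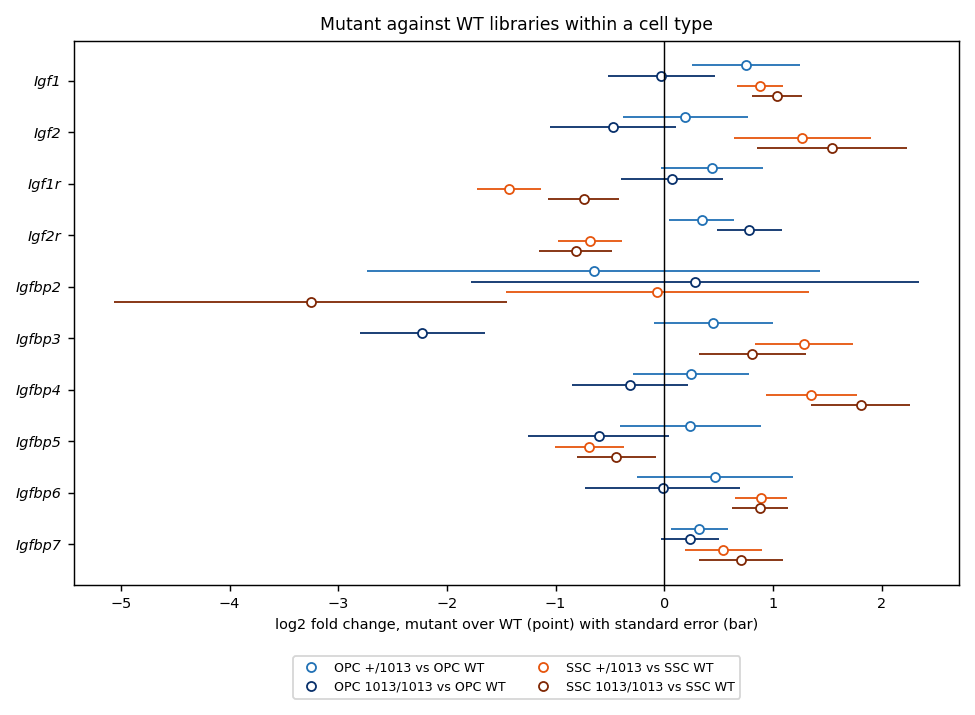
log2 fold change of mutant over WT libraries for each IGF gene with its standard error, in OPCs and SSCs; open points were not called. No point is filled, and Igf1, Igf2, Igfbp3 and Igfbp4 lie to the right and Igf1r and Igf2r to the left of 0 in both SSC comparisons.

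In OPCs 0 of the 10 IGF genes were called in +/1013 against WT (0% of 16207 genes), 0 in 1013/1013 against WT (0.00617%) and 0 in 1013/1013 against +/1013 (0%). At an unadjusted edgeR p under 0.05 stood 0, 2 and 1 of the 10, against 2.04%, 3.38% and 3.17% of all genes. DESeq2's Wald test called 0, 1 and 1, for which no share over all genes is given here. The libraries did not overlap for 0, 3 and 1 of the 10, against 5.28%, 7.61% and 7.34% of all genes. Igfbp3 was the gene that DESeq2 called. It read 7.35, 16.6 and 4.44 CPM in WT, 17.1, 13.9 and 8.17 CPM in +/1013 and 1.304, 1.91 and 2.87 CPM in 1013/1013 OPCs. The 1013/1013 libraries were the lowest of all 9, and +/1013 overlapped WT. The log2 fold change of 1013/1013 was −2.22 ± 0.57 against WT (unadjusted p = 0.00422 and adjusted p = 0.9997 in edgeR, DESeq2 adjusted p = 0.0291). It was −2.68 ± 0.58 against +/1013 (unadjusted p = 0.00154 and adjusted p = 0.9994 in edgeR, DESeq2 adjusted p = 0.00094). The first was −1.53 without OPC WT replicate 2 and −2.52 without the leukocyte-rich libraries, and was not called by edgeR in either.

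Igf2r read 48.1, 39.4 and 21.6 CPM in WT, 45.7, 54.7 and 38.9 CPM in +/1013 and 71.5, 67.4 and 49.2 CPM in 1013/1013 OPCs. The 1013/1013 libraries lay above WT, at 0.78 ± 0.30 (unadjusted p = 0.0297 and adjusted p = 0.9997 in edgeR), and at 0.46 without the leukocyte-rich libraries, of which OPC WT replicate 3 had the 21.6 CPM. Igf2 was lower in 1013/1013 (0.980 to 1.35 CPM) than in WT OPCs (1.40 to 1.82 CPM), at −0.47 ± 0.58 (edgeR adjusted p = 0.9997). The other 7 genes overlapped in every OPC comparison. From the lowest to the highest OPC library Igfbp3 spanned 13.1 times, Igfbp5 5.94 times and Igfbp6 5.92 times, and Igfbp7 spanned 2.17 times, the least of the genes with counts in all 9. The OPC libraries with the most Igfbp4, 325 CPM in +/1013 replicate 1, 256 CPM in 1013/1013 replicate 2 and 247 CPM in WT replicate 1, also had the most Cxcl12, 315, 230 and 154 CPM against 30.3 to 109.7 CPM in the other 6. What this has to do with Igfbp4 was not tested.

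Whether the mutant effect differed between SSCs and OPCs was tested as an interaction in the fit of all 17 libraries. For +/1013, 0 of the 10 IGF genes were called and 0.084% of 20238 genes (0.0692% higher and 0.0148% lower), and for 1013/1013, 0 and 0.153% (0.119% higher and 0.0346% lower). At an unadjusted edgeR p under 0.05 stood 2 and 4 of the 10, against 10.6% and 15% of all genes. DESeq2 called 1 and 3, for which no share over all genes is given here. For +/1013 the effect on Igf1r was 1.85 ± 0.59 lower on the log2 scale in SSCs than in OPCs, written −1.85 (edgeR adjusted p = 0.353, DESeq2 adjusted p = 0.0451), and that on Igf2r was −1.02 ± 0.44 (edgeR adjusted p = 0.446). For 1013/1013 the difference was 3.03 ± 0.77 for Igfbp3 (edgeR adjusted p = 0.15, DESeq2 adjusted p = 0.00754), with the fall in OPCs and the overlap in SSCs given above, and 2.34 without OPC WT replicate 2. It was 2.00 ± 0.83 for Igf2 (edgeR adjusted p = 0.297, DESeq2 adjusted p = 0.0269) and −1.61 ± 0.48 for Igf2r (edgeR adjusted p = 0.184, DESeq2 adjusted p = 0.0225). For Igfbp4 it was 2.09 ± 0.76 (edgeR adjusted p = 0.252, DESeq2 adjusted p = 0.0894), 1.26 without SSC 1013/1013 replicate 1 and 2.86 without OPC 1013/1013 replicate 2. The median of all genes was −0.14 and −0.39 in these differences.

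The other genes of the pathway were taken from 4 lists of 39 genes in all, of which 35 could be tested between cell types. Between WT SSCs and OPCs 2 were called higher and 1 lower, in +/1013 cells 3 and 3, and in 1013/1013 cells 2 and 4, against 11.4%, 12.5% and 13.1% of all genes called in either direction. The median log2 fold change of the 35 was 0.32, −0.17 and −0.21, beside 0.17, 0 and −0.20 over all genes. Among 7 genes for proteases of binding proteins, their inhibitors and the ternary complex, Htra1, which encodes a secreted serine protease able to cleave IGF binding proteins, was higher in SSCs of every genotype. It read 298 to 431 CPM in the 9 OPC libraries and 734 to 1319 CPM in the 8 SSC libraries. The log2 fold change was 1.52 ± 0.24 in WT (edgeR adjusted p = 0.00126), 1.33 ± 0.24 in +/1013 and 1.56 ± 0.26 in 1013/1013 cells. Stc2, which encodes stanniocalcin 2, an inhibitor of the protease PAPP-A, was lower in SSCs, at 9.40 to 41.4 CPM in OPCs and 1.01 to 7.86 CPM in SSCs. Its log2 fold changes were −2.42 ± 0.61, −2.68 ± 0.62 and −2.27 ± 0.71 (edgeR adjusted p = 0.0204, 0.0117 and 0.0493). Adam12, a metalloprotease reported to cleave IGFBP-3 and IGFBP-5, read 23.2 to 82.4 CPM in OPCs and 0.0183 to 14.1 CPM in SSCs, and was called lower at −3.39 ± 0.90 in +/1013 cells (edgeR adjusted p = 0.0252). It was also called lower in 1013/1013 cells (edgeR adjusted p = 0.0118), without a fold here, since SSC replicate 1 lay under the floor of 3 counts at 0.0183 CPM and replicate 2 at 2.35 CPM.

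Ghr, the growth hormone receptor, was the gene called among 5 of the growth hormone axis, at 0.80 ± 0.20 in +/1013 (edgeR adjusted p = 0.02) and 1.13 ± 0.22 in 1013/1013 cells (edgeR adjusted p = 0.005). It was not called in WT cells (0.25 ± 0.20). Of 19 intracellular signalling genes, Grb10, an adaptor that restrains IGF1 and insulin receptor signalling, read 127 to 493 CPM in OPCs and 31.7 to 90.8 CPM in SSCs. It was called at −2.68 ± 0.42 in +/1013 (edgeR adjusted p = 0.000932) and −3.28 ± 0.51 in 1013/1013 cells (edgeR adjusted p = 0.00104), and stood at −1.28 ± 0.40 in WT cells (edgeR adjusted p = 0.0548). Pik3r1, a regulatory subunit of phosphoinositide 3-kinase, was called in WT cells (1.25 ± 0.29), the adaptor Shc1 in +/1013 cells (0.67 ± 0.16) and Tsc2, an inhibitor of mTORC1, in 1013/1013 cells (−1.45 ± 0.45). Tsc2 was outside the rule for named genes and was added after its values were seen. Of 8 other family members 4 could be tested and 0 were called, and Igfbp1, Ins1 and Igf2bp1 had 0 counts in all 17 libraries. Within a cell type 0 of the listed genes were called between genotypes. The smallest unadjusted edgeR p in SSCs was that of Grb10, with 69.6, 90.8 and 74.5 CPM in WT, 31.7 to 51.7 CPM in +/1013 and 34.4 and 38.5 CPM in 1013/1013 libraries, at −0.95 ± 0.22 (edgeR adjusted p = 0.134) and −1.09 ± 0.25 (edgeR adjusted p = 0.12). The next was Mtor at −0.80 ± 0.28 in +/1013 SSCs (edgeR adjusted p = 0.223). In 1013/1013 SSCs it was Pappa2, a protease of binding proteins, at 0.0916 and 0.652 CPM against 3.10 to 7.86 CPM in WT (edgeR adjusted p = 0.174). Between 1013/1013 and +/1013 SSCs it was Pappa2, at 0.873 to 2.53 CPM in +/1013 (edgeR adjusted p = 0.788). In 1013/1013 OPCs Ghr stood at −0.46 ± 0.20 against WT (edgeR adjusted p = 0.9997) and −0.44 ± 0.20 against +/1013, where Stc2 followed at 0.70 ± 0.44 (edgeR adjusted p = 0.9994 for both). Mtor stood at −0.79 ± 0.45 in +/1013 OPCs (edgeR adjusted p = 1). Igf2bp3, the remaining gene by this rule in both mutant OPC comparisons with WT and in the +/1013 interaction, was at 0 to 1.20 CPM in OPCs. In the interactions Grb10 stood at −1.40 ± 0.56 for +/1013 (edgeR adjusted p = 0.429) and −2.00 ± 0.61 for 1013/1013 (edgeR adjusted p = 0.187), and Ghr at 0.88 ± 0.30 for 1013/1013 (edgeR adjusted p = 0.228).

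**Figure D5:**
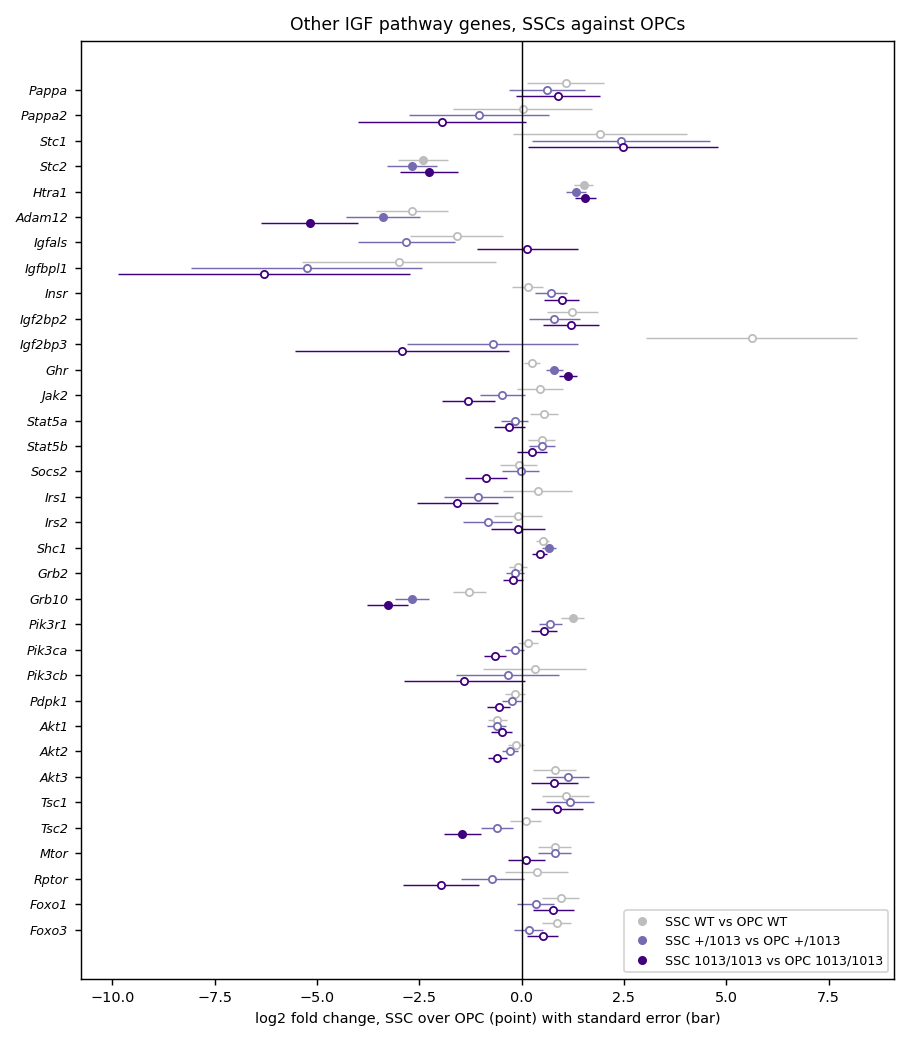
log2 fold change of SSCs over OPCs with its standard error for 34 of the 35 other pathway genes tested, in 3 genotypes; filled points were called. Htra1 is filled to the right and Stc2 to the left in all 3 genotypes, and Adam12 and Grb10 are filled to the left in both mutants.

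The genes with the pattern nearest to each member were sought among 8275 others with a mean of at least 10 CPM, by the root mean square (RMS) difference of centred log2 CPM over the 17 libraries, a measure which also reflects the cell type difference that many genes share. Igfbp6 was nearest to C1s1 (0.30), Gpnmb (0.34) and C1ra (0.44), while its own SD was 2.63. Igfbp5 was nearest to Fndc1 (0.34), Axl (0.49) and Ccdc3 (0.50), and Igf1 to Car5b (0.35), Nsg1 (0.42) and Rpl23 (0.44), with SDs of 1.80 and 1.69. Igfbp7 was nearest to A4galt (0.37), Ecm2 (0.37) and Hmgb1 (0.38), Igfbp4 to Ifitm3 (0.41), H2-T23 (0.43) and Fbln5 (0.46), and Igf2 to Pgrmc1 (0.32), Eef1a1 (0.35) and Map1lc3a (0.35). The receptors were nearest to Ndst1 (0.32), Man1c1 (0.36) and Arid1a (0.38) for Igf1r, and to Acin1 (0.33), Rabep2 (0.35) and Urgcp (0.36) for Igf2r, where the members' own SDs were 0.64 and 0.50. Igfbp3 had no gene as near, with Fgf18 (0.83), C1qtnf2 (0.93) and Mustn1 (0.97) at an SD of 2.66, and neither had Igfbp2, with Mmp3 (1.57), Inhba (1.64) and Ltbp2 (1.72) at an SD of 2.54.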

How the data were processed

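RNA of the 17 pools was amplified with the SMART-Seq v4 kit and made into Nextera XT libraries. The authors checked the reads with FastQC, aligned them with STAR to mm10 and used HTSeq for counting. The files hold raw counts per gene as deposited by the authors. Versions, annotation release and strand setting are not given in the sources used here. Counters without a gene stayed out of library sizes. Of 55335 gene identifiers, 55154 matched GENCODE M21, by identifier without version.

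In R 4.3.3, edgeR 4.0.16 (glmQLFit with legacy = TRUE, glmQLFTest) was run after filterByExpr and TMM, without covariates. The cell types and the interactions came from a fit of all 17 libraries, and the genotypes from a fit of the 3 genotypes of a cell type. The SE is the absolute log2 fold change divided by the square root of F. Alternatives were DESeq2 1.42.0 with its Wald test, DESeq2 size factors, no filter, 10 counts in every library, bias-adjusted quasi-likelihood, thinned libraries, a replicate block, all libraries in a shared fit, only the 2 groups compared, no fold threshold, plain totals for CPM, and each library left out. Leaving out the leukocyte-rich libraries (over 2000 CPM) was added after the data were seen. The edgeR test was tried on simulated data, and DESeq2 was not.

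Values are printed for all 10 genes, with a fold change where a gene was called, had an unadjusted p under 0.05 or did not overlap. Listed pathway genes are named where called (at most 3 rises and 3 falls) or else for the 2 smallest p-values, without a fold where a library lay near or under the floor of 3 counts. The values of 1 listed gene are not reported here. For likeness the 3 nearest genes are given. The genes and lists were chosen with earlier results of these data known. Promoters are from RefSeq, where 10 of 10 genes matched. No protein sequence is shown.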

Additional observations from a re-analysis of the deposited data

Results flagged for a closer look

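Igf2 and Igf2r stood out because their 1013/1013 libraries moved opposite ways from WT in the 2 cell types, each without overlap. They were picked for this difference, so the tests below, on the same values, are no independent check of it. In either direction, 1013/1013 and WT libraries did not overlap for 40.7% of all genes in SSCs and 7.61% in OPCs. Igf2 was higher in 1013/1013 than in WT SSCs (3.02 and 3.96 against 0.851 to 1.60 CPM) and lower in 1013/1013 than in WT OPCs (0.980 to 1.35 against 1.40 to 1.82 CPM), and the difference of the effects was 2.00 on the log2 scale (1.9952; SE 0.83). Igf2r was lower in 1013/1013 SSCs (30.3 and 30.5 against 44.0 to 73.0 CPM) and higher in 1013/1013 OPCs (49.2 to 71.5 against 21.6 to 48.1 CPM), with a difference of −1.61 (−1.6146; SE 0.48). The interaction test of edgeR did not pass for Igf2 (adjusted p = 0.297) or Igf2r (adjusted p = 0.184), and DESeq2's Wald test did (adjusted p = 0.0269 and 0.0225). Over the alternatives the edgeR and DESeq2 adjusted p ran from 0.0269 to 0.662 for Igf2 and from 0.0225 to 0.608 for Igf2r. Without the leukocyte-rich libraries the differences were 1.87 and −1.42 (edgeR adjusted p = 0.589 and 0.489). Igf2 was counted at low levels and shares its strand with an overlapping gene.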

How the results depend on the processing

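No fold change reversed. Of the fold changes recomputed, 789 kept their side of the threshold, 21 passed it and 7 lost it. The cell type counts kept to 5 in WT and 6 in +/1013 cells, except for 5 to 6 and 4 to 6 with a library left out, and lay between 5 and 8 in 1013/1013 cells (5 to 6 with a library left out). With DESeq2's Wald test 1 IGF gene was called in 1013/1013 against WT OPCs (Igfbp3), 1 in 1013/1013 against +/1013 OPCs (Igfbp3), 3 in +/1013 against WT SSCs, 3 in 1013/1013 against WT SSCs, and 1 and 3 in the interactions for +/1013 and 1013/1013, where edgeR called 0. DESeq2's shares over all genes are not given here. With a library left out, the counts ran from 0 to 2 in 1013/1013 against WT SSCs and from 0 to 1 against +/1013 SSCs, the highest without 1013/1013 replicate 2. The replicate block gave 5, 6 and 7 genes between the cell types and 0 in every other comparison. Samples with the same number were weakly correlated (40 pairs, r from −0.265 to 0.274, median 0.0064), and the numbers were not taken as pairs. Within a cell type r ran from −0.208 to 0.242 (16 pairs, median 0.0351). In OPCs, however, replicate 1 had the highest Igf1r of its genotype in all 3 genotypes (17.02, 21.1 and 16.7 CPM). The same held for Igfbp6 (132, 209 and 104.5 CPM) and Igf2 (1.82, 2.89 and 1.345 CPM). The other IGF genes were not highest there in every genotype. What the numbers stand for was not tested. Levels moved by more than 1 SD in 17 of 60 group means on plain library totals. The cause of these changes was not tested. Igfbp2 had 0 counts in 4 of 17 libraries, and Igf2 had 55 to 216 counts in each.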
